A study of Homo sapiens with 9 samples.

Results

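Chromatin immunoprecipitation and sequencing (ChIP-seq) peaks of CDK9 and DDX21 were examined within 40 kb of the transcription start sites of 10 genes that report on ERK signalling in A375 cells, a human melanoma line. The genes were DUSP6, SPRY2, SPRY4, PHLDA1, IER3, FOSL1, ETV5, EGR1, MYC and JUN, and a peak was taken when its nearest base lay within that distance of the hg19 start. This gave 147 of the 27469 peaks of the 6 deposited lists. The cells had been exposed for 24 h to 25 µM A771726 with added nucleotides, to 25 µM A771726 alone, or to DMSO. A771726, the active metabolite of leflunomide, inhibits dihydroorotate dehydrogenase of pyrimidine synthesis. Which nucleotides were added, and how much, the labels do not state. There was 1 library per antibody and treatment, which leaves no replicate error to judge a difference by. The 3 input samples were not used here.

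ERK is the last kinase of the RAF, MEK and ERK cascade, and A375 cells are known for constant activity of this cascade through mutant BRAF. ERK phosphorylates transcription factors at immediate early genes such as EGR1 and JUN, whose RNAs appear within minutes and decay fast, and it sustains FOSL1, ETV5, PHLDA1 and the feedback inhibitors DUSP6, SPRY2 and SPRY4. These genes depend on rapid release of RNA polymerase II from promoter-proximal pausing, the step driven by CDK9, the kinase of P-TEFb. DDX21, an RNA helicase of the DEAD-box family, is found mainly in the nucleolus and is also known at polymerase II promoters.

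CDK9 peaks lay near 6 of the 10 genes with A771726 and nucleotides, near 2 with A771726 and near 7 in DMSO. They numbered 52 with nucleotides, 7 with A771726 and 59 in DMSO, and covered 16727, 1299 and 19592 bp. With A771726 only PHLDA1 and IER3 had CDK9 peaks. DDX21 peaks lay near 4, 3 and 5 genes in the same order, and numbered 9, 7 and 13. No list held a peak within 40 kb of the starts of ETV5 or MYC. The whole lists, in the same order, held 3099, 290 and 3462 CDK9 peaks and 7922, 4375 and 8321 DDX21 peaks. When each CDK9 list was cut to its top 290 peaks, 9, 7 and 6 lay near the genes, at 6, 2 and 4 of them. Fragments of the CDK9 library with A771726 were taken as shorter, as described for PHLDA1 below. Whether this lowered the number of its listed peaks was not tested.

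As a background, the chromosomes were cut into 38643 windows of 80 kb. A CDK9 peak was held by 4.77% of these windows with nucleotides, 0.349% with A771726 and 5.45% in DMSO. Windows with a DDX21 peak in DMSO were also taken, and 11.1%, 0.931% and 14.3% of them held a CDK9 peak. Dense groups were rarer: at least 5 CDK9 peaks lay in 0.235% of all windows with nucleotides, in 0.0336% with A771726 and in 0.235% in DMSO, against 6, 0 and 6 of the 10 genes. Among windows with a DDX21 peak these shares were 0.466%, 0.0499% and 0.516%. For DDX21, 14.9%, 9% and 15.6% of the windows held a peak. The background windows lie at fixed steps whether or not they hold a start, and a step can split a group of peaks. The gene windows are centred on starts, so the shares and the gene counts are not like for like. The genes were also chosen with earlier results of these data known, so these shares are a description and no test was made.

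**Figure D1:**
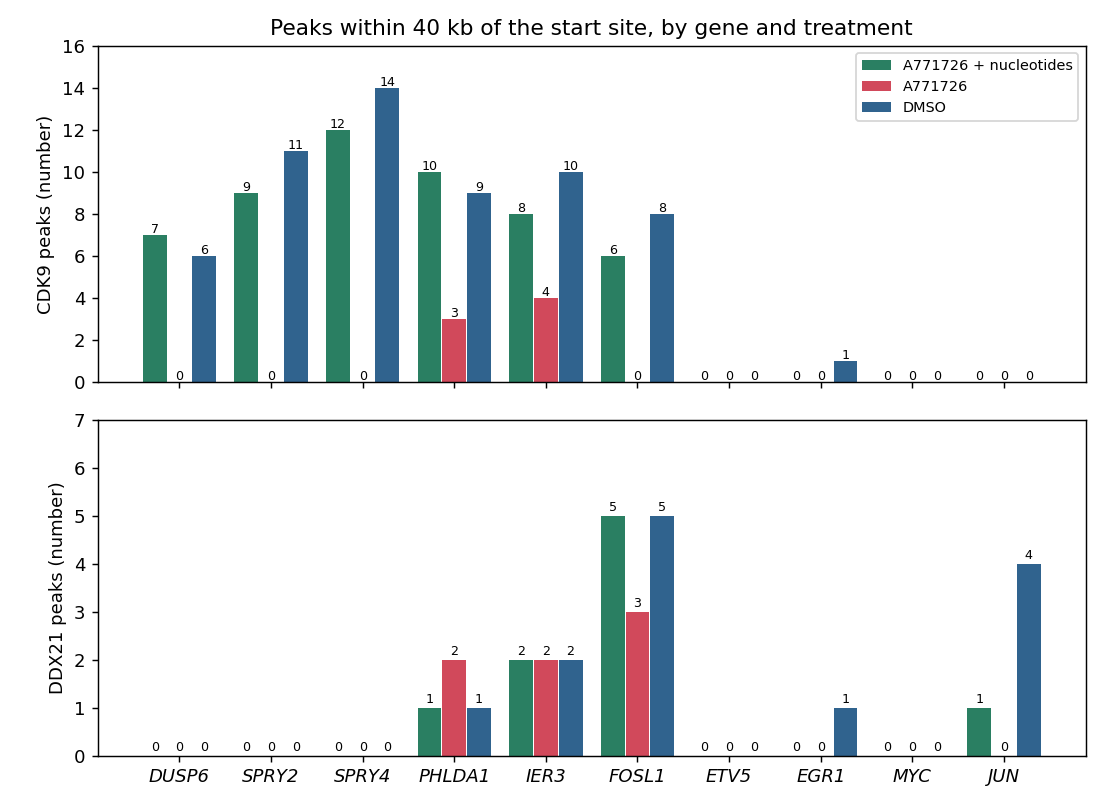
Number of CDK9 peaks (top) and DDX21 peaks (bottom) within 40 kb of each start site, with A771726 and nucleotides, with A771726 alone and in DMSO, 1 library each. CDK9 peaks with A771726 alone were listed at PHLDA1 and IER3 only, and ETV5 and MYC had 0 peaks in all lists.

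CDK9 peaks gathered around the starts. Of the peaks near the 10 genes, 32 of 52 with nucleotides (61.5%), 7 of 7 with A771726 (100%) and 39 of 59 in DMSO (66.1%) came within 5 kb of a start. Summits lay downstream, in the direction of transcription, for 33, 7 and 40 peaks and upstream for 19, 0 and 19. The genes differed in this. In DMSO, SPRY2 had 10 downstream and 1 upstream, SPRY4 10 and 4, and PHLDA1 9 and 0. IER3 had 5 and 5, FOSL1 4 and 4, DUSP6 2 and 4, and EGR1 0 and 1. Starts of other genes were not assigned, so no share over the whole lists stands beside these counts. DDX21 differed, with 1 of 9, 2 of 7 and 2 of 13 peaks within 5 kb.

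**Figure D2:**
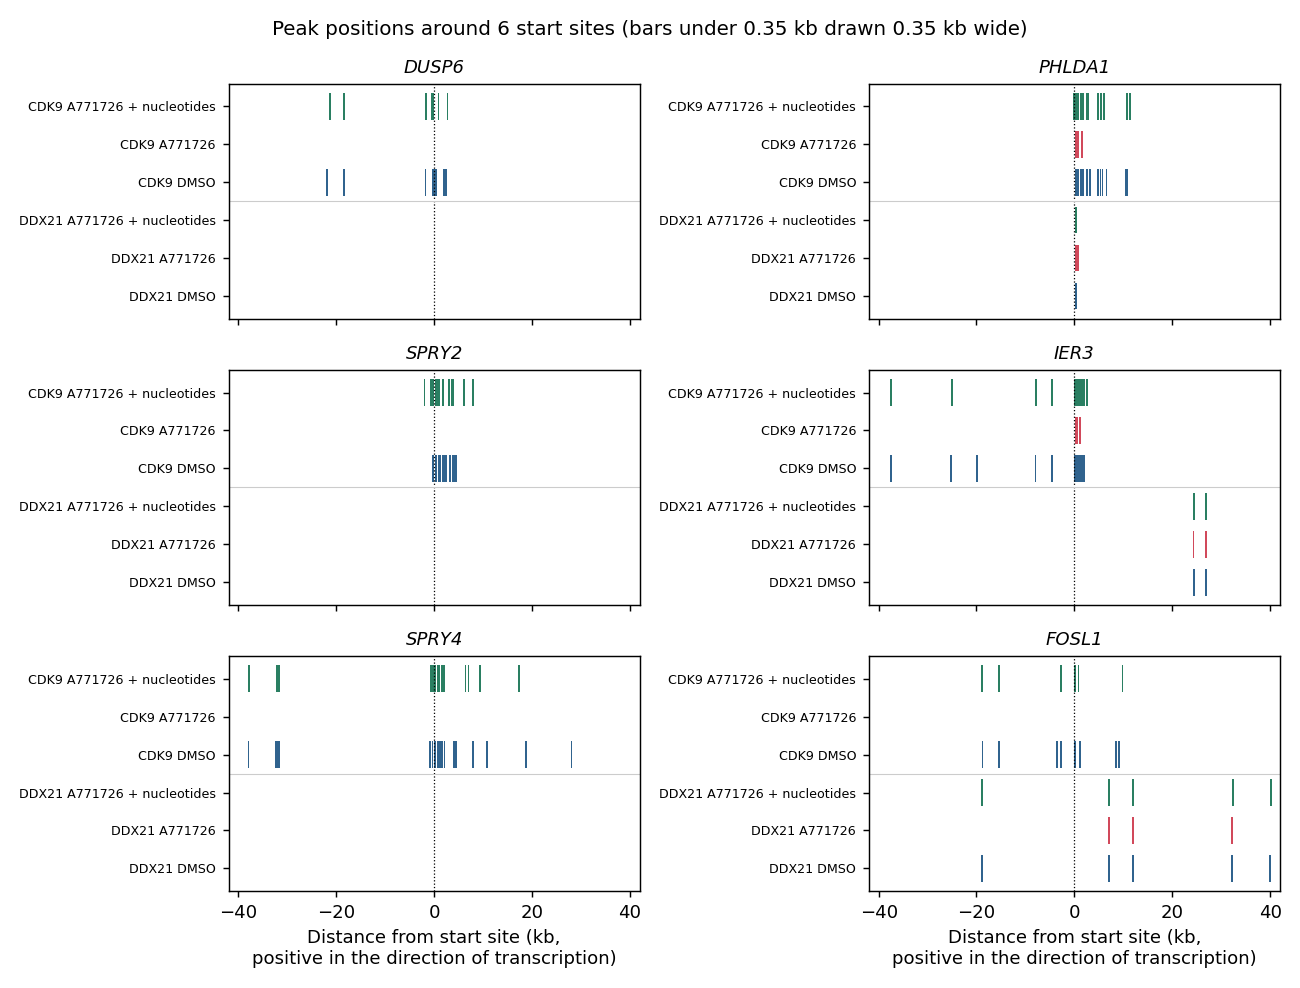
Positions of CDK9 peaks (upper 3 rows of each panel) and DDX21 peaks (lower 3 rows) around the starts of DUSP6, SPRY2, SPRY4, PHLDA1, IER3 and FOSL1, in kb from the start, positive in the direction of transcription. CDK9 peaks with A771726 stand within 1.62 kb downstream of the starts of PHLDA1 and IER3, and DUSP6, SPRY2 and SPRY4 have no DDX21 peak.

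The feedback inhibitors had groups of CDK9 peaks with nucleotides and in DMSO and no CDK9 peak with A771726. SPRY4, an inhibitor of receptor signalling to RAS and RAF, had 12 CDK9 peaks with nucleotides, 0 with A771726 and 14 in DMSO. SPRY2, of the same family, had 9, 0 and 11. DUSP6, a phosphatase that inactivates ERK itself, had 7, 0 and 6. None of the 3 had a DDX21 peak in any list.

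The strongest CDK9 peak of SPRY4 in DMSO was not at its start. Its place was chromosome 5, 141736151 to 141737185 in hg19, the build of all peak positions here, with its summit 32065 bp upstream of the start at 141704620, and ranked 14 of 3462 by −log10 q. The number of fragments over the summit, its pileup, was 42 with nucleotides and 53 in DMSO, and no peak was listed with A771726. At the start itself, a peak ran from 141704143 to 141704669 with nucleotides, with a pileup of 57, and from 141704175 to 141704691 in DMSO, with 39. So the order of the 2 libraries differed between the distal site and the start. A further upstream site, at 37849 bp with nucleotides and 37943 bp in DMSO, had 30 and 28 fragments. FGF1 is the next protein-coding gene on this side of SPRY4 in RefSeq, and the lists do not tie these distal sites to a gene.

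SPRY2 had its strongest CDK9 peak just upstream of the start. It lay on chromosome 13 from 80915192 to 80915503 with nucleotides, with a pileup of 48 and a rank of 33 of 3099, and from 80915203 to 80915516 in DMSO, with 46 and a rank of 54. The other 10 DMSO peaks followed in a row from 316 to 4448 bp downstream of the start, with pileups between 13 and 29. With nucleotides the row reached 8032 bp downstream. Of the 11 DMSO peaks, 9 overlapped a peak with nucleotides.

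At DUSP6, 5 of the 7 CDK9 peaks with nucleotides and 4 of the 6 in DMSO had summits upstream of the start at 89746296, and the other 2 of each list had theirs downstream. The peak nearest the start ran on chromosome 12 from 89746389 to 89746863 with nucleotides, with a pileup of 39 and a fold enrichment of 5.53, and from 89745634 to 89746665 in DMSO, with 28 and 2.71. It came within 93 bp of the start with nucleotides and covered it in DMSO. The local background there was high in DMSO, 9.70 fragments against a lowest value of 1.17 for the list, and the DMSO peak ranked 3161 of 3462. Just upstream, summits lay at 1510 and 1707 bp with nucleotides, with 22 and 19 fragments, and at 1685 bp in DMSO, with 25. The strongest DUSP6 peak in DMSO by −log10 q, rank 1528, lay farther upstream. Its summit was at 18509 bp in both lists, and it ran from 89764640 to 89764881 with nucleotides, with 27 fragments, and from 89764646 to 89764903 in DMSO, with 31. Another lay at 21338 bp with nucleotides and 21861 bp in DMSO, without overlap between the lists. POC1B is the neighbouring gene on this side in RefSeq.

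Promoter sequences of SPRY2 and DUSP6 are shown because CDK9 was listed at or next to these starts with nucleotides and in DMSO and not with A771726. They are the 250 bases before the outermost start in RefSeq, GRCh38.p14, minus strand, 5′ to 3′, at chr13:80341127-80341376 and chr12:89352502-89352751. Capitals mark CCGGAA, a core of ETS factor sites such as that of ETV5. Whether these starts are the same bases as the hg19 starts was not compared between builds. SPRY4, with a CDK9 peak over its start in both lists and none with A771726, met the same reason. Its promoter in the sequence table was not that of the outermost start, held none of the runs searched for below and is not shown.
SPRY2: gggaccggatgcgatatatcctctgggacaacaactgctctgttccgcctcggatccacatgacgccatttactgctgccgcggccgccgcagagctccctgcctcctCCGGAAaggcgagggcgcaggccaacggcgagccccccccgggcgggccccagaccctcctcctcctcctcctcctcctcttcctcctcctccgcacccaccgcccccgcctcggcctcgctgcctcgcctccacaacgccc
DUSP6: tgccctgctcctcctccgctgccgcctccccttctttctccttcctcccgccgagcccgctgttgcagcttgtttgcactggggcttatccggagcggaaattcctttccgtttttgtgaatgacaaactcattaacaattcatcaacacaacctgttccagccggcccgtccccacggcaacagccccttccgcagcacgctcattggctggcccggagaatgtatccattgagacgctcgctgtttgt

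PHLDA1 and IER3 still had CDK9 peaks with A771726, in a short stretch after their starts. PHLDA1, a pleckstrin-homology-like protein induced by ERK, had 10 CDK9 peaks with nucleotides, 3 with A771726 and 9 in DMSO. IER3, an immediate early gene with roles in cell survival, had 8, 4 and 10. The A771726 peaks of PHLDA1 had summits 262, 805 and 1619 bp downstream of the start, and those of IER3 220, 380, 675 and 1157 bp downstream.

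At PHLDA1 the tallest CDK9 peak in DMSO ran on chromosome 12 from 76424556 to 76425485, ranked 38 of 3462 and had 54 fragments. With nucleotides the matching peak, from 76424909 to 76425841, had 52. With A771726 it was split into peaks from 76424723 to 76425002 with 19 fragments, rank 91 of 290, and from 76425057 to 76425347 with 18, rank 42. These pileups cannot be set side by side, because CDK9 peaks were as short as 129 bp with nucleotides, 50 bp with A771726 and 128 bp in DMSO, so fragments of the A771726 library were taken as shorter. Divided by the lowest background of their lists, the heights were 41.8 with nucleotides, 36.5 with A771726 and 46.1 in DMSO. That background was 1.24, 0.521 and 1.17 in the same order, and it falls with the length taken for a fragment. A summit pileup need not fall as far, so CDK9 heights with A771726 may come out too high. They cannot show whether CDK9 kept its level. A second site near 1.6 kb had heights of 32.1, 21.1 and 28.2, and its A771726 peak, from 76423925 to 76424002, had 11 fragments and a rank of 194. Further downstream, PHLDA1 had summits up to 11304 bp with nucleotides and up to 10854 bp in DMSO, where none was listed with A771726.

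At IER3 the tallest DMSO peak covered the start, on chromosome 6 from 30711452 to 30712410, with 35 fragments and a height of 29.9. With nucleotides the start was covered from 30711885 to 30712356, with a height of 25.7. With A771726, 3 peaks lay within the span of the DMSO peak, from 30712065 to 30712142, from 30711913 to 30711993 and from 30711499 to 30711836, with heights of 21.1, 28.8 and 30.7. The next peak with nucleotides, from 30711071 to 30711761, had a height of 24.9 and its summit 732 bp downstream. It overlapped 2 peaks of each of the other lists, so the sites do not pair one to one. The farthest A771726 peak downstream, from 30711066 to 30711218, had a height of 26.9, and the DMSO peak it met, from 30710935 to 30711400, had 18.8. The A771726 heights at IER3 rest on 11 to 16 fragments and may be too high, as at PHLDA1. Upstream of IER3 a string of CDK9 peaks ended at 37495 bp with nucleotides, with 27 fragments, and at 37475 bp in DMSO, with 21. Of these upstream sites 4 were listed with nucleotides, 0 with A771726 and 5 in DMSO. DDR1 is the next protein-coding gene in RefSeq on that side.

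**Figure D3:**
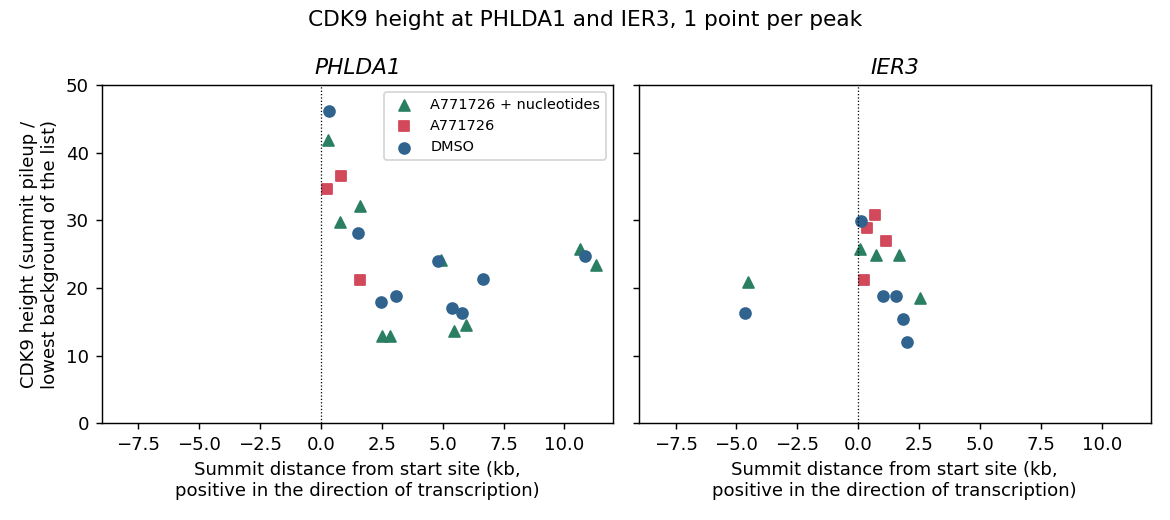
CDK9 height (summit pileup over the lowest background in its list) against distance from the start in kb for PHLDA1 and IER3, 1 point per peak, with A771726 and nucleotides, with A771726 alone and in DMSO, for summits from 6 kb upstream to 12 kb downstream. The A771726 peaks, with heights from 21.1 to 36.5, lie among those of the other libraries near the start and are missing farther out. Heights with A771726 may be too high, since its fragments were taken as shorter.

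The PHLDA1 promoter is shown because it bordered the only site with peaks of both antibodies under all 3 treatments. These are the 250 bases before its start in RefSeq, GRCh38.p14, minus strand, at chr12:76031777-76032026, with the reverse complement of CCGGAA in capitals.
PHLDA1: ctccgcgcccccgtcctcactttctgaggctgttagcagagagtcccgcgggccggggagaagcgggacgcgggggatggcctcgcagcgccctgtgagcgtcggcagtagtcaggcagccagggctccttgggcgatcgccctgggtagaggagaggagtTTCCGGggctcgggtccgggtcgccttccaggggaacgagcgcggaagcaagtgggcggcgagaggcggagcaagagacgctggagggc

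Among the transcription factors only FOSL1 had a group of CDK9 peaks within 40 kb. FOSL1 encodes FRA1, an AP-1 subunit that pairs with JUN proteins. It had 6 CDK9 peaks with nucleotides, 0 with A771726 and 8 in DMSO. The peak at the start ran on chromosome 11 from 65667664 to 65667994 with nucleotides, with 40 fragments and a rank of 92, and from 65667690 to 65667993 in DMSO, with 27 and a rank of 695. Upstream summits lay at 2815, 15413 and 18843 bp with nucleotides, with 33, 41 and 25 fragments, and near the same places in DMSO, with 35, 39 and 29. All 3 upstream sites overlapped between these 2 lists. The farthest was the strongest CDK9 peak near FOSL1 in DMSO by −log10 q, from 65686725 to 65686862, with a rank of 331. With nucleotides it ran from 65686768 to 65686896, with a rank of 1012. Another DMSO site upstream, at 3540 bp with 17 fragments, had no counterpart. C11orf68 and DRAP1 lie upstream of FOSL1 in RefSeq and CCDC85B and FIBP downstream. The CDK9 peaks away from the FOSL1 start were therefore not assigned to it.

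EGR1, JUN, MYC and ETV5 had few CDK9 peaks or none. EGR1, a zinc-finger factor, had 1 CDK9 peak, in DMSO, on chromosome 5 from 137799656 to 137799900. Its summit was 1461 bp upstream of the start and had 23 fragments, and no peak was listed with nucleotides or with A771726. JUN, the AP-1 subunit, had no CDK9 peak and only DDX21 peaks, 1 with nucleotides, 0 with A771726 and 4 in DMSO. MYC, a factor for growth and ribosome production, and ETV5, an ETS factor, had neither. An empty list does not show that CDK9 was absent: the lowest −log10 p of a listed CDK9 peak was 4.61 with nucleotides, 6.06 with A771726 and 4.68 in DMSO, and weaker signal is not recorded.

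The EGR1 promoter is shown for contrast, since it holds a motif of immediate early genes and had no peak over it. CArG boxes, bound by serum response factor, which acts with ERK-responsive partners, are in capitals in the 250 bases before the EGR1 start in RefSeq (GRCh38.p14, plus strand, chr5:138465229-138465478).
EGR1: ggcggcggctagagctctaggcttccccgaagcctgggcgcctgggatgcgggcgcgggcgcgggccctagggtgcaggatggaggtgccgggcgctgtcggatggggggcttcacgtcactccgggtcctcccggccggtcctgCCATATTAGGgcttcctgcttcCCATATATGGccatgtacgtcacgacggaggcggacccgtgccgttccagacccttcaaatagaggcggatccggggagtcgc

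Of the 10 genes, 6 had a promoter in the RefSeq sequence table, and each was searched on both strands. A CArG box was found before EGR1 only, 96 to 105 and 74 to 83 bases upstream, and in 1.16% of all 35116 promoter windows of that length. CCGGAA was found before SPRY2, 137 to 142 bases upstream, and before PHLDA1, 84 to 89 bases upstream, and in 14.5% of all windows. TGANTCA, TGACGTCA and CACGTG were in none of the windows of these genes, against 6.57%, 1.65% and 6.34% of all windows. TGANTCA, with any base at N, takes in the AP-1 site and is wider than it. TGACGTCA is the site of CREB factors and CACGTG the E-box of MYC. Variants of these runs were not searched for, so a promoter without a match may still hold a related site. A match is a run of letters and not a bound site.

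Over all sites near the 10 genes, few CDK9 peaks of DMSO cells had an A771726 peak and most had a peak with nucleotides. An A771726 peak overlapped 4 of 59 (6.78%, exact binomial Clopper-Pearson 95% interval 1.88 to 16.5), which is near the 5.4% of the whole list. A peak with nucleotides overlapped 39 of 59 (66.1%, 52.6 to 77.9), against 45.2% of the whole list. DMSO peaks of the same deciles of −log10 q gave 6.23% and 49.0%. Among the 55 DMSO sites that had no A771726 peak, 35 had one with nucleotides (63.6%, 49.6 to 76.2), against 42.7% over the list. All 7 A771726 peaks lay on a DMSO peak and on a peak with nucleotides, against 77.6% and 76.6% of the A771726 list. The intervals treat peaks as independent, and peaks of 1 gene lie side by side, so they cover counting error only and are too narrow. DMSO peaks near these genes were also wider, with a median of 243 bp against 186 bp for the list, and a wider peak is more easily overlapped. Some peaks with nucleotides met several DMSO peaks. The shares were not matched to the list for width or crowding.

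Tall CDK9 sites in DMSO were found on both sides. Of the 7 DMSO peaks near these genes that stood among the top 346 of the CDK9 list, its highest decile, 2 had an A771726 peak and 7 had one with nucleotides. The 2 were at PHLDA1 and IER3. Those without an A771726 peak included the SPRY4 upstream site and the SPRY2 start, with 53 and 46 fragments in DMSO. The 20 DMSO peaks without a counterpart with nucleotides had 13 to 27 fragments, median 18.5, against 13 to 54, median 25.0, for the 39 with one. At those 39, the height with nucleotides over that in DMSO had a median of 1.04 and ran from 0.715 to 2.10. A peak with nucleotides that met several DMSO peaks was set against each, so these ratios are not separate sites. The ratio of 2.10 arose so, at SPRY2, where 1 peak with 29 fragments was set against DMSO peaks with 13, 19 and 20. The height was lower with nucleotides at 16 of 39, against 49.7% of all shared CDK9 peaks, whose median ratio was 1.00. At the 4 DMSO sites shared with A771726 the height with A771726 was lower at 2, against 55.1% of all. At the 7 A771726 sites the height with nucleotides was lower at 3, against 40.5% of all. Both comparisons use A771726 heights that may be too high, as said for PHLDA1, so they do not measure a change in CDK9.

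DDX21 peaks near these genes lay mostly away from the starts, around FOSL1, IER3 and JUN. FOSL1 had 5 with nucleotides, 3 with A771726 and 5 in DMSO. The tallest was on chromosome 11 from 65635424 to 65635867 with nucleotides, 32280 bp downstream of the start, with 117 fragments. It had 41 with A771726, from 65635609 to 65635859, and 138 in DMSO, from 65635553 to 65635867. The peak nearest the start, 7.04 kb downstream, ran from 65660849 to 65661053 with nucleotides, with 71 fragments, from 65660897 to 65661043 with A771726, with 28, and from 65660861 to 65661057 in DMSO, with 69. The others of this gene were 11.97 and 40.1 kb downstream and 18.8 kb upstream with nucleotides. The upstream one, which had 38 fragments with nucleotides and 49 in DMSO, was not listed with A771726. CCDC85B, FIBP and CTSW follow FOSL1 downstream in RefSeq and C11orf68 and DRAP1 lie upstream, so these peaks are in a gene-dense stretch and were not assigned to a start.

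At IER3, both DDX21 peaks were listed under all 3 treatments, 24 to 27 kb downstream. The taller, on chromosome 6 from 30687681 to 30688167 with nucleotides, had 139 fragments with nucleotides, 45 with A771726 and 144 in DMSO, where it ran from 30687701 to 30688172. The other had 61, 24 and 62. FLOT1, TUBB and MDC1 follow IER3 on this side in RefSeq.

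The DDX21 peaks of JUN and EGR1 were weaker. At JUN the tallest lay 16.8 kb downstream, on chromosome 1 from 59232905 to 59233103 with nucleotides, with 19 fragments, and from 59232861 to 59233102 in DMSO, with 26. The other 3 were listed in DMSO only. One stood 194 bp upstream of the start, from 59249915 to 59250066, with 23 fragments and a fold enrichment of 2.49, and ranked 8281 of 8321. EGR1 had 1 DDX21 peak, in DMSO, on chromosome 5 from 137829466 to 137829601, 28346 bp downstream of the start, with 15 fragments.

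DDX21 height was lower with A771726 at all 7 shared sites near these genes, as it was at 99% of the shared DDX21 peaks of the whole list. The median ratio of A771726 to DMSO was 0.345 at these sites, from 0.302 to 0.807, and 0.417 over the list. With nucleotides, 4 of 9 shared sites were lower than in DMSO, against 39.2% over the list, and the median ratio was 1.07 against 1.04. Set against A771726 alone, 0 of 6 were lower with nucleotides, against 0.184% over the list, and the median ratio of nucleotides to A771726 was 2.77 against 2.49. The ratio of 0.807 belonged to PHLDA1 and was above the 90th percentile of the list, 0.646. Its DMSO peak was weak, with 22 fragments and a rank of 7846 of 8321. A ratio exists only where an A771726 peak was listed, so low ratios at weak peaks go unrecorded. The 6 DMSO peaks without an A771726 peak, with 15 to 49 fragments, gave none. By presence, 7 of 13 DMSO peaks had an A771726 peak (53.8%, 25.1 to 80.8), against 51.1% of the list. With nucleotides, 9 of 13 had one (69.2%, 38.6 to 90.9), against 86.3%. DMSO peaks of the same deciles of −log10 q gave 39.1% and 79.4%. These shares, like those of the whole list, lie within the intervals. Of the 6 without an A771726 peak, 2 had one with nucleotides (33.3%, 4.33 to 77.7), against 72.2%.

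**Figure D4:**
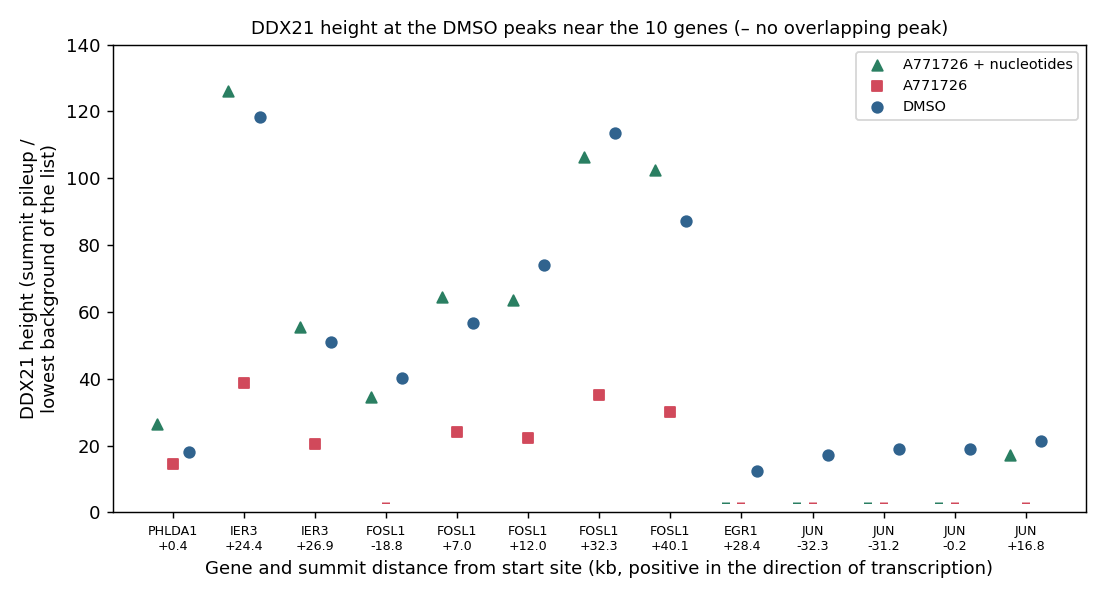
DDX21 height (summit pileup over the lowest background in its list) at the 13 DMSO peaks near the 10 genes, ordered by gene and distance from the start, with A771726 and nucleotides, with A771726 alone and in DMSO. The tallest overlapping peak is drawn for each list, and a dash marks no overlapping peak; with A771726 the 7 shared sites sit between 14.6 and 38.6, and in DMSO between 18.1 and 118.4.

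PHLDA1 was the only gene with DDX21 within 1 kb of its start under all 3 treatments. A peak ran on chromosome 12 from 76425108 to 76425267 with nucleotides, with 29 fragments, from 76425105 to 76425290 with A771726, with 17, and from 76425145 to 76425321 in DMSO, with 22. Heights were 26.3, 14.6 and 18.1. These were weak peaks, ranked 7381 of 7922, 4172 of 4375 and 7846 of 8321. With A771726 a second DDX21 peak lay from 76424651 to 76424838, 777 bp downstream, with 23 fragments and a height of 19.7. It overlapped no DDX21 peak with nucleotides or in DMSO. Near these genes 6 of 7 A771726 peaks overlapped a DMSO peak, against 99.3% of the list, and this was the one that did not.

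CDK9 and DDX21 shared few sites near these genes, and the shares differed with the side they were taken from. A DDX21 peak of the same treatment overlapped 2 of 52 CDK9 peaks with nucleotides (3.85%, 0.469 to 13.2), 2 of 7 with A771726 (28.6%, 3.67 to 71.0) and 2 of 59 in DMSO (3.39%, 0.413 to 11.7). The whole CDK9 lists gave 13.6%, 15.5% and 17.8%. The shared sites were the PHLDA1 start with all 3 treatments and the FOSL1 upstream site at 18.8 kb with nucleotides and in DMSO. With A771726 both shared CDK9 peaks were at PHLDA1 and each met 1 of its 2 DDX21 peaks. From the side of DDX21, 3 of 9 peaks met a CDK9 peak with nucleotides (33.3%, 7.49 to 70.1), against 5.3% of the list. With A771726 it was 2 of 7 (28.6%, 3.67 to 71.0), against 0.96%, and in DMSO 2 of 13 (15.4%, 1.92 to 45.5), against 7.38%. The third with nucleotides was the FOSL1 site 40.1 kb downstream, whose CDK9 partner lay just outside 40 kb.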

How the data were processed

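ChIP-seq with antibodies against CDK9 and DDX21 was done under 3 treatments, with 1 library each, per the labels' protocols. Per the submitters' processing notes, Bowtie, MACS2 2.0 and the build hg19 were used; for their settings and controls the sources used here give nothing. Each deposited list belongs to 1 library and gives a fold enrichment (a ratio to local background), −log10 p and −log10 q from the authors' peak caller. The authors' score column, 10 times −log10 q, was not used. Fold, −log10 q and rank describe a peak within its own list.

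The start sites came with the choice of genes and are hg19. The 10 genes and all lists were chosen with earlier results of these data known, and all 10 are named. Peaks given in full are the strongest by −log10 q of a gene and antibody in DMSO, the one nearest the start, and every CDK9 peak with A771726; others were added after their values were seen, as was the limit of 5 peaks per window. Strands of FOSL1, IER3, ETV5 and MYC are textbook knowledge. No hg19 annotation was used, so exons, introns and other genes' starts were not assigned; the RefSeq table of GRCh38.p14 gave neighbours and promoters only.

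Peaks overlapping by at least 1 bp were counted as shared. Pileup k and background b were solved from fold = (k + 1)/(b + 1) and −log10 p as a Poisson upper tail, and a whole number met both within 0.001 for 100% of peaks in every list. Height is pileup divided by the lowest background of the list. Where several peaks overlapped, the tallest was taken. A peak that overlapped several peaks of the list it was compared with was set against each of them. Read totals were not at hand. Lowest background over shortest peak gave tags relative to DMSO of 1.05 for CDK9 with nucleotides and 1.14 with A771726, and of 0.885 and 1.06 for DDX21. No p-value was computed. The steps were tested on simulated data. Alternatives were a summit within 40 kb, a window of 20 kb, a −log10 q of at least 5, equal list lengths, merging within 1 kb, an overlap of 50%, summits within 250 bp and, added after seeing the data, the same p threshold. Python 3.11.15, pandas 2.3.3 and scipy 1.17.1 were used.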

Additional observations from a re-analysis of the deposited data

How the results depend on the processing

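No paired analysis was possible because each antibody and treatment had 1 library. Of 102 alternatives to 19 results, 81 stayed within the 95% interval of a share or within 1.5 times a count, and 21 moved. The same p threshold within an antibody, 16 of the alternatives and added after seeing the data, moved none. With a −log10 q of at least 5, CDK9 peaks numbered 34 with nucleotides, 3 with A771726 and 38 in DMSO, and DDX21 peaks 4 with A771726. With peaks within 1 kb merged, CDK9 peaks numbered 27, 2 and 29. Within 20 kb, DDX21 peaks numbered 5, 4 and 6, and DDX21 genes in DMSO 3. With the top 290 CDK9 peaks of each list, 9 lay near the genes with nucleotides and 6, at 4 genes, in DMSO. Of those 6, 33.3% (2) had an A771726 peak and 83.3% (5) a peak with nucleotides. With the top 4375 DDX21 peaks, 5 with nucleotides and 6 in DMSO lay near 2 genes each, and 100% of those in DMSO had an A771726 peak. So at equal list length 9 CDK9 peaks with nucleotides, 7 with A771726 and 6 in DMSO lay near the genes. The genes that held them numbered 6, 2 and 4, against 6, 2 and 7 with the full lists. Fewer peaks enter each of these settings by construction. The CDK9 peaks with A771726 near these genes rest on 11 to 19 fragments each. The depth of their library was estimated at 1.14 times that of DMSO. That estimate divides by the shortest peak, 50 bp with A771726 and 128 bp in DMSO. Fragments taken as shorter also give lower pileups, so a like depth need not list as many peaks. How much of the difference in CDK9 peak numbers and shares this accounts for was not tested.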

Other observations

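The 40 kb limit cut through 1 site. Near FOSL1, DDX21 peaks whose nearest base was 39.9 kb from the start were inside with nucleotides, with 113 fragments, and in DMSO, with 106. The A771726 peak at the same place, with 35 fragments, was outside at 40.1 kb, as was a CDK9 peak with nucleotides at 40.0 kb with 26 fragments. The CDK9 peaks of SPRY4 at 37.7 kb with nucleotides and 37.8 kb in DMSO were the farthest inside. The nearest CDK9 peaks outside with A771726 and in DMSO were those of PHLDA1 at 52.3 and 49.2 kb, with 12 and 30 fragments. Between 40 and 60 kb from a start, PHLDA1 had 2 CDK9 peaks with nucleotides, 2 with A771726 and 3 in DMSO.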
